A study of Mus musculus with 8 samples.

Results

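The glutathione, thioredoxin and peroxiredoxin genes of the mouse heart were compared between Pcyt2+/- females and Pcyt2+/- males. Members were the probe sets with a single gene symbol that names a glutathione S-transferase, a glutathione peroxidase, a peroxiredoxin, an enzyme of glutathione synthesis or reduction, a thioredoxin system gene, a superoxide dismutase, catalase, sulfiredoxin, Nqo1 or Hmox1. They numbered 46 genes, each read by 1 probe set, of the 22180 genes on the arrays. The hearts came from 4 females and 4 males aged 8 months, all heterozygous for Pcyt2, which encodes an enzyme of phosphatidylethanolamine synthesis, so the loss of an allele is shared by both groups and is not compared here. Tissue, labelled as myocardium, was taken 3 to 4 hours after lights on, and each heart gave 1 expression array. The labels call the hearts biological replicates of their sex.

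Glutathione is a tripeptide thiol made in a first step by glutamate-cysteine ligase and a second step by glutathione synthetase. Glutathione peroxidases use it to reduce peroxides, glutathione S-transferases join it to reactive compounds, and glutathione reductase restores the oxidised form with NADPH. Peroxiredoxins and thioredoxins form a parallel relay of protein thiols. In heart muscle, where mitochondria are dense, both relays remove hydrogen peroxide, and the transcription factor NRF2 switches on many of their genes through the antioxidant response element.

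Each deposited value is on a log scale, taken here as log2 because the base is not stated, and is relative to the probe set's own median over the 8 arrays, so no absolute level is known and the expression of 2 genes cannot be ranked. Differences are female minus male on that log2 scale, with standard errors from a limma fit over all 22180 genes. Pcyt2 itself read -0.03, 0.24, 0.01 and -0.06 in female hearts 1 to 4, against -0.13, -0.01, 0.32 and 0.19 in male hearts 1 to 4, and the sexes overlapped. Xist was between 1.99 and 2.18 in females and between -3.02 and -1.99 in males, as the sex labels require. The Y-linked genes Uty, Kdm5d and Eif2s3y lay between -1.57 and -0.89 in females and between 0.89 and 1.76 in males. Mean values of 8 cardiomyocyte markers per heart ran from -0.06 to 0.03 in females and from -0.02 to 0.02 in males, which shows an even muscle signal but, on centred values, not its strength. Other markers were less even, and in bulk tissue fewer cells of a type and less RNA per cell cannot be told apart. Adipocyte markers (6 of 7 with higher means in females) ranged from -0.14 to 0.40 in females and -0.22 to 0.17 in males. Liver-type markers (8 of 8 higher in females) ranged from -0.05 to 0.54 in females and -0.08 to -0.02 in males. Only females 1 and 2 stood out, at 0.31 and 0.54. Differences given below with these markers as a covariate therefore rest largely on those hearts, and sex and marker level are hard to separate in them. Fast skeletal muscle markers (0 of 8 higher in females) ranged from -0.25 to 0.35 in females and -0.20 to 0.88 in males, and atrial markers (6 of 6 higher in females) from -1.23 to 0.52 in females and -1.02 to 0.25 in males. Of other markers, 6 of 8 for macrophages, 5 of 6 for lymphocytes, 4 of 6 for fibroblasts, 2 of 6 for endothelium, 0 of 6 for smooth muscle and pericytes and 1 of 4 for mesothelium had higher means in females, and the 1 erythroid marker measured had a lower one. The mean over the markers went against these counts for fibroblasts (-0.05 in females, 0.03 in males) and for mesothelium (0.05 in females, 0.04 in males).

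No member passed an adjusted p of 0.05 (limma, Benjamini-Hochberg over all genes), where 7 of all 22180 genes did (0.0316%), and the adjusted p of the members ran from 0.602 upwards. The means of 32 of the 46 members were higher in females and those of 14 were lower, while 49.6% of all genes had higher means in females. The median difference was 0.03 over the members and -0.00 over all genes. Without female 4 the members' median was 0.02. At an unadjusted p under 0.05 there were 8 members, 6 higher and 2 lower in females, against 6.96% of all genes (3.63% higher and 3.32% lower). That member count was 4 without male 4 and 5 with the liver markers as a covariate. The largest difference of any member was 1.16-fold.

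**Figure D1:**
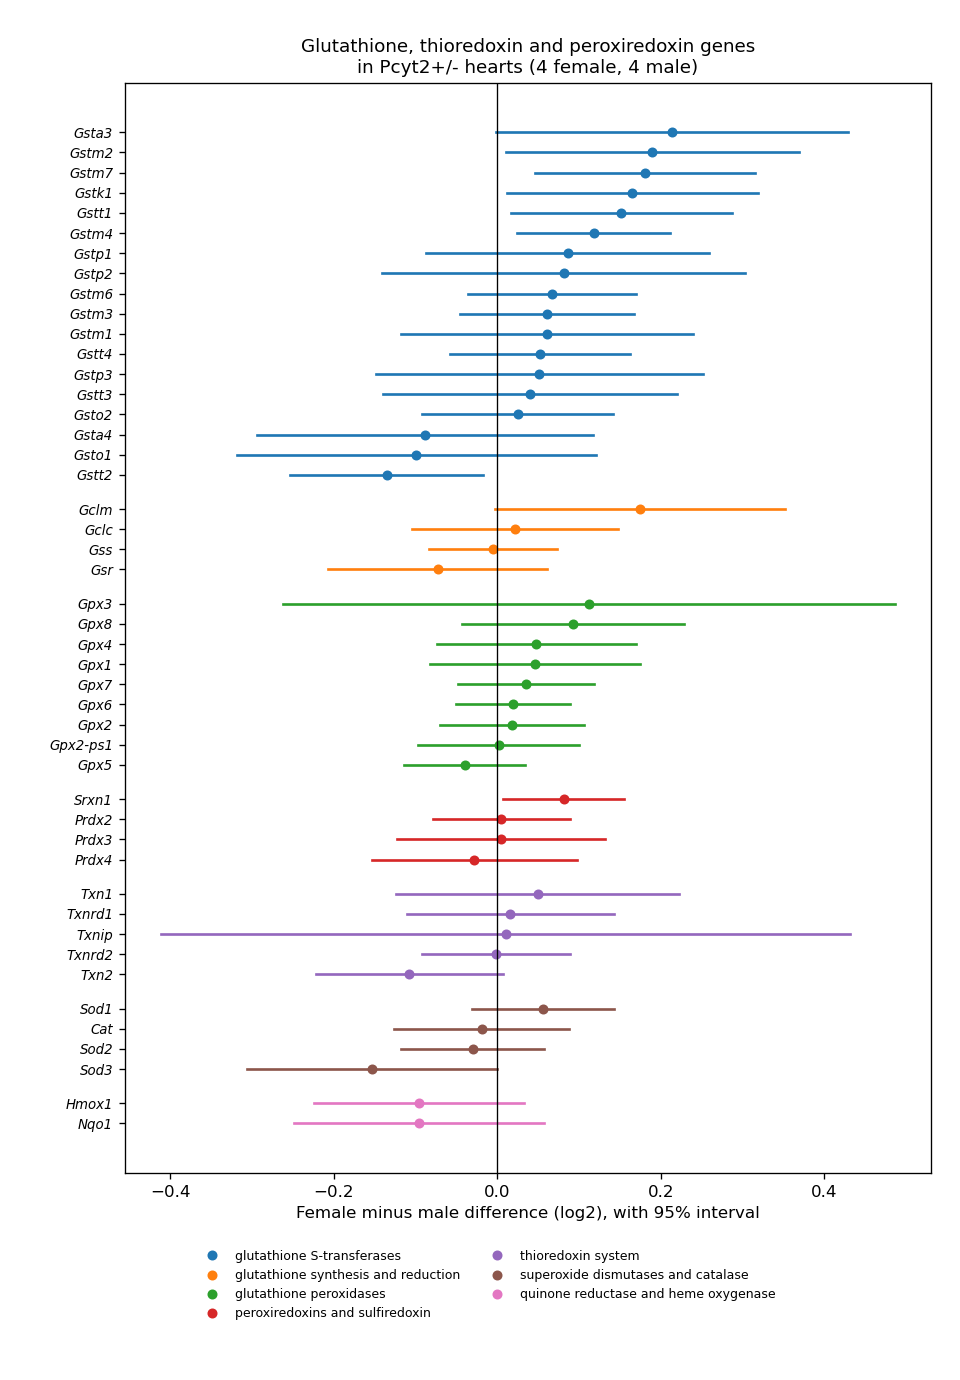
Female minus male difference of each of the 46 members on the log2 scale (horizontal axis), with its 95% interval from limma, grouped by role. Most points of the glutathione S-transferases lie right of 0, at up to 0.21, while both points of the quinone reductase and heme oxygenase group lie left of it at -0.10.

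Promoter sequence is shown before the values of single genes, because NRF2 is known to act on many members through a short element. Only bases close to the gene start were searched, so an element farther away would be missed. RefSeq windows of 300 bases (build GRCm38.p6, 250 bases before to 50 after the start) were held for 39 of the 46 members, in 51 windows. The core of the antioxidant response element, TGACNNNGC, was searched on both strands and stood in 6 of the 51 member windows (11.8%), against 12.4% of all 32851 windows. The form TGANTCAGC, which overlaps the core only where its N is C, stood in 3 of the 51 windows (5.88%), those of Srxn1, Gstp1 and Gstp2, against 1.19% of all windows. That form was chosen after the sequences were seen, so the comparison with all windows is no test. Gstp1 and Gstp2 are both on chromosome 19 and hold the same 9 bases, so they may not be separate matches. Windows are shown for the members with the largest differences or smallest p that held a match, Gstm7 (chr3:107931565-107931864, minus strand), Gsta3 (chr1:21240335-21240634, plus strand), Gclm (chr3:122245307-122245606, plus strand) and Srxn1 (chr2:152105274-152105573, plus strand), and for Gstp1 (chr19:4037863-4038162, minus strand), which holds the same 9 bases as Srxn1. Each is written 5′ to 3′ on the gene's strand, and capitals mark the matches.
Gstm7: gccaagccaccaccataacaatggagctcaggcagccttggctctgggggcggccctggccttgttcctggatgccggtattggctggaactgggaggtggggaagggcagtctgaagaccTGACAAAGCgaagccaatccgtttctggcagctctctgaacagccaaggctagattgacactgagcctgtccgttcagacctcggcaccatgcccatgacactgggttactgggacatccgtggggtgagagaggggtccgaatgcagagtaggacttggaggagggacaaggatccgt
Gsta3: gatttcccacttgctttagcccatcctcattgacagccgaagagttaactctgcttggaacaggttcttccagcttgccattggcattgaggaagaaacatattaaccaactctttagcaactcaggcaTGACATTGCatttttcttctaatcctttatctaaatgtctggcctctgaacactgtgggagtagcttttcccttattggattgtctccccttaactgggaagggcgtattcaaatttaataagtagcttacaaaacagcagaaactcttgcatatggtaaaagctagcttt
Gclm: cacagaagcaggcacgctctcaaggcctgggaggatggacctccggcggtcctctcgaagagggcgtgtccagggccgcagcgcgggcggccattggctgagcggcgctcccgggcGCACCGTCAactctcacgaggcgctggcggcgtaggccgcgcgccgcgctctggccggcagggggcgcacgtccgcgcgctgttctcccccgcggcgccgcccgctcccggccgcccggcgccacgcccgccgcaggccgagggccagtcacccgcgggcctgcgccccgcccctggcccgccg
Srxn1: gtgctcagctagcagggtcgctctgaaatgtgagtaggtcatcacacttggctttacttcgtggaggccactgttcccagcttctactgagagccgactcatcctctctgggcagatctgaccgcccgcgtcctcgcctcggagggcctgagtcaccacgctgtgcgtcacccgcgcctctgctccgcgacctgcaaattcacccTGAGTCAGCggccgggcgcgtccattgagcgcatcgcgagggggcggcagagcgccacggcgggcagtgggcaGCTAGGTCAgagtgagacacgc
Gstp1: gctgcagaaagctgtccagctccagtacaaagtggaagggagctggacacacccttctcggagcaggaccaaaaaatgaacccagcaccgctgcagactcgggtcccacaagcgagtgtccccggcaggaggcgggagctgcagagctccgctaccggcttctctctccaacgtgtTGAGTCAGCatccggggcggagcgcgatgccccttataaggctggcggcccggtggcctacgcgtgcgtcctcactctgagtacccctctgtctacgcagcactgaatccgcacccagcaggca
The match began 129 bases before the start in Gstm7, 121 before it in Gsta3 and 134 before it in Gclm, where it lay on the opposite strand. Srxn1 held TGAGTCAGC 45 bases before the start and a core on the opposite strand 29 bases after it, and Gstp1 held TGAGTCAGC 74 bases before the start. Sod1 and Txnrd1 also held a core, and the differences of the members with a match ran from 0.02 for Txnrd1 to 0.21 for Gsta3. No window was held for Gclc, Gpx2-ps1, Gsr, Gsta4, Gstt2, Hmox1 and Sod3, so no match could be sought there. Their differences ran from -0.15 for Sod3 to 0.02 for Gclc, so the range for members with a match leaves these genes out. A match is a run of letters, and binding at it was not measured here.

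The glutathione S-transferases held the widest set of differences. Of 18 measured, 15 had higher means in females, 0 passed the adjusted threshold and 6 had an unadjusted p under 0.05, with a median difference of 0.06. Of all genes, 49.6% had higher means in females and 6.96% had an unadjusted p under 0.05. The mu class, whose enzymes conjugate electrophiles in the cytosol, leaned one way: all 6 measured genes had higher means in females, by 0.06 to 0.19, with a median of 0.09. The mu class was not among the roles set in advance and is the only transferase class given a summary. Its lean therefore describes these data and tests nothing. Their mean per heart was 0.07, 0.04, 0.06 and 0.09 in female hearts 1 to 4, against -0.09, -0.08, 0.02 and -0.04 in male hearts 1 to 4. The mean of 6 lymphocyte markers also separated the sexes, at 0.01 to 0.07 in females and -0.03 to -0.00 in males, and its part in the mu class values was not tested. The mu genes stand side by side in the RefSeq gene order of chromosome 3 (Gstm5, Gstm7, Gstm6, Gstm3, Gstm2, Gstm1 and Gstm4, with only pseudogenes between them). They are close paralogs, and whether their probe sets also bind each other's transcripts was not tested, so their readings may not be independent.

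Gstm7 had the smallest p of the members. It read -0.01, 0.20, 0.12 and 0.02 in female hearts 1 to 4, against -0.18, -0.16, 0.01 and -0.07 in male hearts 1 to 4. Only female 1 and male 3 crossed, with male 3 above female 1. The means were 0.08 ± 0.10 in females and -0.10 ± 0.09 in males (SD, n = 4 each), a difference of 0.18 ± 0.06 (SE, limma adjusted p = 0.602, exact two-sided permutation p = 0.0571).

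Gstm4 had values of 0.18, 0.10, 0.06 and 0.01 in the females, against -0.01, -0.06, -0.01 and -0.04 in the males. Every female heart lay above every male heart, which held for 2 members, Gstm4 and Srxn1. The sexes did not overlap in 3.74% of all genes (1.89% with higher and 1.85% with lower values in females). The difference was 0.12 ± 0.04 (SE, limma adjusted p = 0.633, exact permutation p = 0.0286, the smallest that 4 against 4 can give). With any 1 of the 8 arrays left out, the unadjusted p (limma) of both Gstm7 and Gstm4 stayed under 0.05. It did so for 16 of 17 alternatives for Gstm4 and 15 of 17 for Gstm7. The other members with an unadjusted p under 0.05 were less steady. Theirs stayed under 0.05 in 4 of the 8 fits with an array left out for Gstk1, Gstm2, Gstt1 and Gstt2. For Srxn1 and Sod3 it did so in 3 of 8. With the liver markers as a covariate the Gstm4 difference was 0.08, and with the adipocyte markers as a covariate that of Gstm7 was 0.12.

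Gstm2 spread most within the mu class, at 0.03, -0.03, 0.11 and 0.27 in the females, against -0.27, -0.11, 0.02 and -0.02 in the males. Female 4 was highest and male 1 lowest, and the sexes overlapped. The difference was 0.19 ± 0.08 (SE, limma adjusted p = 0.69), or 0.09 with the adipocyte markers as a covariate and 0.29 with the liver markers. The other mu genes, Gstm6, Gstm1 and Gstm3, had differences of 0.07, 0.06 and 0.06.

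The alpha class gene Gsta3, whose enzyme is known in mice for conjugating the epoxide of aflatoxin, had the largest difference of any member. It read 0.01, -0.01, 0.35 and 0.14 in the females, against -0.01, 0.08, -0.23 and -0.20 in the males. Females 3 and 4 lay above all males, males 1, 3 and 4 lay below all females, and male 2 lay above females 1 and 2. The difference was 0.21 ± 0.10 (SE, limma adjusted p = 0.718), or 0.14 without female 3 and 0.35 with the liver markers as a covariate. Gsta4, whose enzyme acts on 4-hydroxynonenal, had a difference of -0.09.

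Theta class genes pointed both ways. Gstt1 read -0.05, 0.06, 0.14 and 0.19 in the females, against -0.02, -0.15, 0.02 and -0.11 in the males. Of the females, 3 lay above all males and female 1 lay among them, with a difference of 0.15 ± 0.06 (SE, limma adjusted p = 0.666). Gstt2 read -0.13, 0.02, -0.12 and -0.02 in the females, against 0.06, 0.10, 0.16 and -0.03 in the males. Here 3 males lay above all females, and the difference was -0.14 ± 0.05 (SE, limma adjusted p = 0.662). With the adipocyte markers as a covariate the differences were 0.06 for Gstt1 and -0.21 for Gstt2, and with the liver markers that of Gstt1 was 0.23. Gstt4 and Gstt3 had differences of 0.05 and 0.04.

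Gstk1, the kappa class transferase of mitochondria and peroxisomes, read 0.02, 0.24, 0.12 and -0.04 in the females, against -0.18, -0.01, 0.01 and -0.13 in the males. Females 1, 2 and 3 were above all males, and female 4 lay among them. Its difference was 0.17 ± 0.07 (SE, limma adjusted p = 0.684), or 0.09 with the liver markers as a covariate. The pi class genes Gstp1, Gstp2 and Gstp3 had differences of 0.09, 0.08 and 0.05. The omega class genes Gsto2 and Gsto1, whose enzymes reduce dehydroascorbate among other substrates, had 0.02 and -0.10.

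**Figure D2:**
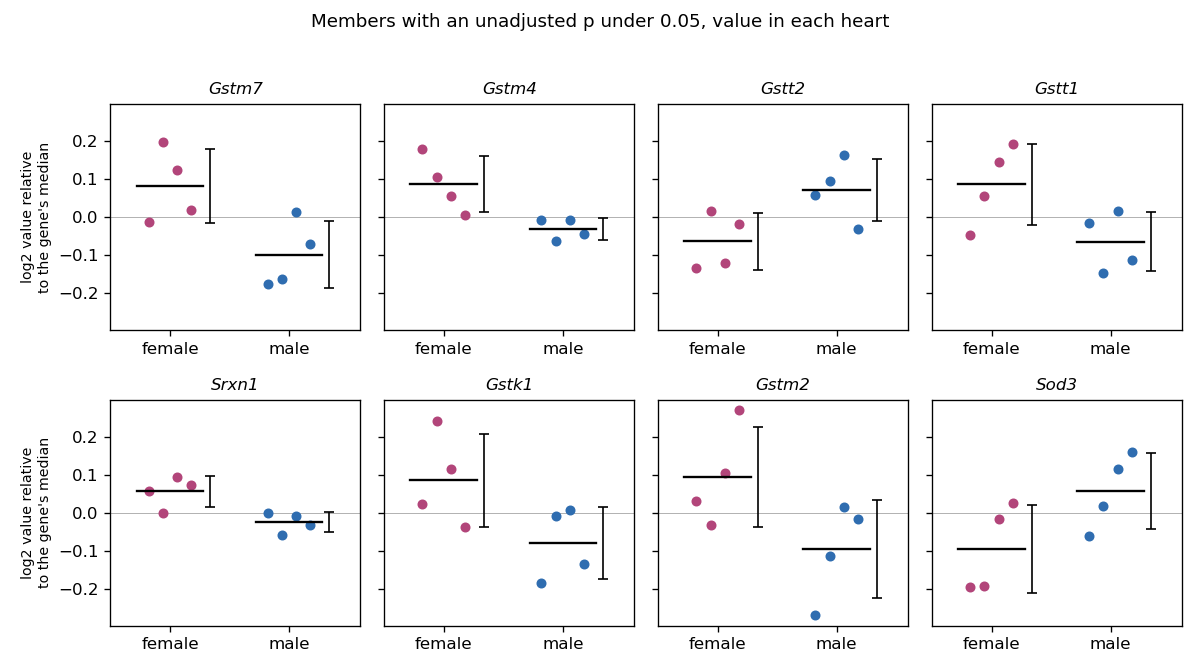
Log2 value relative to the gene's median (vertical axis) in each female and each male heart for the 8 members with an unadjusted p under 0.05. Points are hearts 1 to 4 from left to right, lines are means and bars are the SD over 4 hearts. The female and male points of Gstm4 and of Srxn1 do not overlap, and those of the other 6 genes do.

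Glutathione synthesis and reduction had 4 genes, 2 with higher means in females, and 0 with an unadjusted p under 0.05. Gclm, the modifier subunit of glutamate-cysteine ligase, read 0.32, 0.05, 0.00 and -0.00 in the females, against -0.12, 0.02, -0.02 and -0.20 in the males. Female 1 stood far above the other females, which overlapped the males, and the difference of 0.17 ± 0.08 (SE, limma adjusted p = 0.718) was 0.10 without it. The catalytic subunit gene Gclc had a difference of 0.02 and the glutathione synthetase gene Gss one of -0.01. Gsr, the glutathione reductase gene, read 0.11, -0.07, -0.02 and -0.09 in the females, against 0.11, 0.15, -0.05 and 0.02 in the males, with wide overlap. Its difference was -0.07 ± 0.06 (SE), or 0.03 with the adipocyte markers as a covariate.

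Of 9 glutathione peroxidase genes, 8 had higher means in females and 0 had an unadjusted p under 0.05. Gpx3, which encodes the secreted peroxidase of plasma, varied more between hearts than between the sexes. It read -0.43, 0.21, -0.01 and 0.43 in the females, against 0.01, 0.07, -0.30 and -0.04 in the males. The highest and the lowest heart were both female, and its SD within a sex was at percentile 99.5 of all genes. The difference was 0.11 ± 0.17 (SE, limma adjusted p = 0.956), or -0.05 with the adipocyte markers as a covariate, 0.27 without female 1 and -0.01 without female 4. In the same female hearts 1 to 4 the adipocyte marker mean was -0.14, 0.23, 0.14 and 0.40, the atrial mean -1.23, 0.52, -0.18 and 0.34, and the mesothelial mean -0.31, -0.02, 0.07 and 0.44. All of these were lowest in female 1, and apart from the atrial mean, which peaked in female 2, highest in female 4. The macrophage, fibroblast and endothelial means and the 1 erythroid marker were also lowest in female 1 (-0.14, -0.15, -0.12 and -0.39). Of these further sets, only the macrophage mean was highest in female 4 (0.07). In the males Gpx3 was lowest in male 3, where the adipocyte mean was the highest of the males (0.17) and the atrial and mesothelial means the lowest (-1.02 and -0.07). There the macrophage, fibroblast and erythroid values were also the lowest of the males (-0.06, -0.06 and -0.03), and the endothelial mean the highest (0.09). The part of these cells in the spread of Gpx3 was not tested.

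Gpx8, a peroxidase of the endoplasmic reticulum, read 0.10, -0.01, 0.03 and -0.01 in the females, against 0.01, 0.07, -0.18 and -0.16 in the males. Males 3 and 4 were low and males 1 and 2 lay among the females, with a difference of 0.09 ± 0.06 (SE). It was 0.06 without male 3 or male 4 and 0.17 with the adipocyte markers as a covariate. Gpx1, the abundant cytosolic peroxidase gene, and Gpx4, whose enzyme reduces phospholipid hydroperoxides within membranes, both had differences of 0.05. Their 95% intervals ran from -0.08 to 0.18 and from -0.07 to 0.17. Gpx7, Gpx6, Gpx2 and the pseudogene Gpx2-ps1 had 0.03, 0.02, 0.02 and 0.00, and Gpx5, known for its expression in the epididymis, had -0.04.

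Among the peroxiredoxins and sulfiredoxin, Srxn1 was set apart by its small spread. Sulfiredoxin restores peroxiredoxins whose active cysteine has been overoxidised. The gene read 0.06, 0.00, 0.10 and 0.07 in the females, against -0.00, -0.06, -0.01 and -0.03 in the males. No female lay below a male, although female 2 and male 1 nearly touched. The difference was 0.08 ± 0.03 (SE, limma adjusted p = 0.673, exact permutation p = 0.0286), which is 1.06-fold, and its SD within a sex was at percentile 10.9 of all genes. The difference ran from 0.07 to 0.12 over the 17 alternatives. Its unadjusted p (limma) was under 0.05 in 11 of the 17, and in 3 of the 8 with an array left out.

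The peroxiredoxin genes themselves showed little. Prdx3, the mitochondrial peroxiredoxin gene, read 0.09, 0.06, 0.02 and -0.15 in the females, against -0.05, -0.02, -0.02 and 0.09 in the males. Female 4 was lowest and the rest overlapped, with a difference of 0.00 (95% interval -0.12 to 0.13). The X-linked endoplasmic reticulum gene Prdx4 read -0.02, 0.03, 0.00 and -0.08 in the females, against -0.00, 0.02, -0.12 and 0.15 in the males. Its extremes were both male, and the difference was -0.03. The cytosolic gene Prdx2 had a difference of 0.00 with a 95% interval from -0.08 to 0.09. Prdx1 was read only by probe sets shared with other genes, and Prdx5 and Prdx6 were not analysed here.

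In the thioredoxin system, Txnip was the member that varied most between hearts. It encodes a protein that binds thioredoxin and limits glucose uptake, and its expression is known to follow glucose supply. The readings were -0.35, 0.01, 0.41 and 0.14 in the females, against 0.50, -0.01, -0.26 and -0.08 in the males. Female 1 and male 3 were low, female 3 and male 1 were high, and the SD within a sex was at percentile 99.7 of all genes. The difference was 0.01 ± 0.19 (SE, 95% interval -0.41 to 0.43), and that interval holds the difference of every other member. The wide spread rests on 1 probe set. A second, shared with Gm15441, ran only from -0.06 to 0.18 and was highest in male 3.

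Thioredoxin itself, Txn1, read 0.20, 0.13, 0.02 and -0.05 in the females, against -0.08, 0.23, -0.04 and -0.02 in the males. Male 2 was highest and the sexes overlapped, with a difference of 0.05 ± 0.08 (SE). With an array left out it ran from 0.01 (without female 1) to 0.12 (without male 2), and it was 0.13 with the adipocyte and -0.04 with the liver markers as a covariate. The mitochondrial thioredoxin gene Txn2 had a difference of -0.11 (95% interval -0.22 to 0.01). The reductase genes Txnrd1 and Txnrd2 had differences of 0.02 and -0.00.

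**Figure D3:**
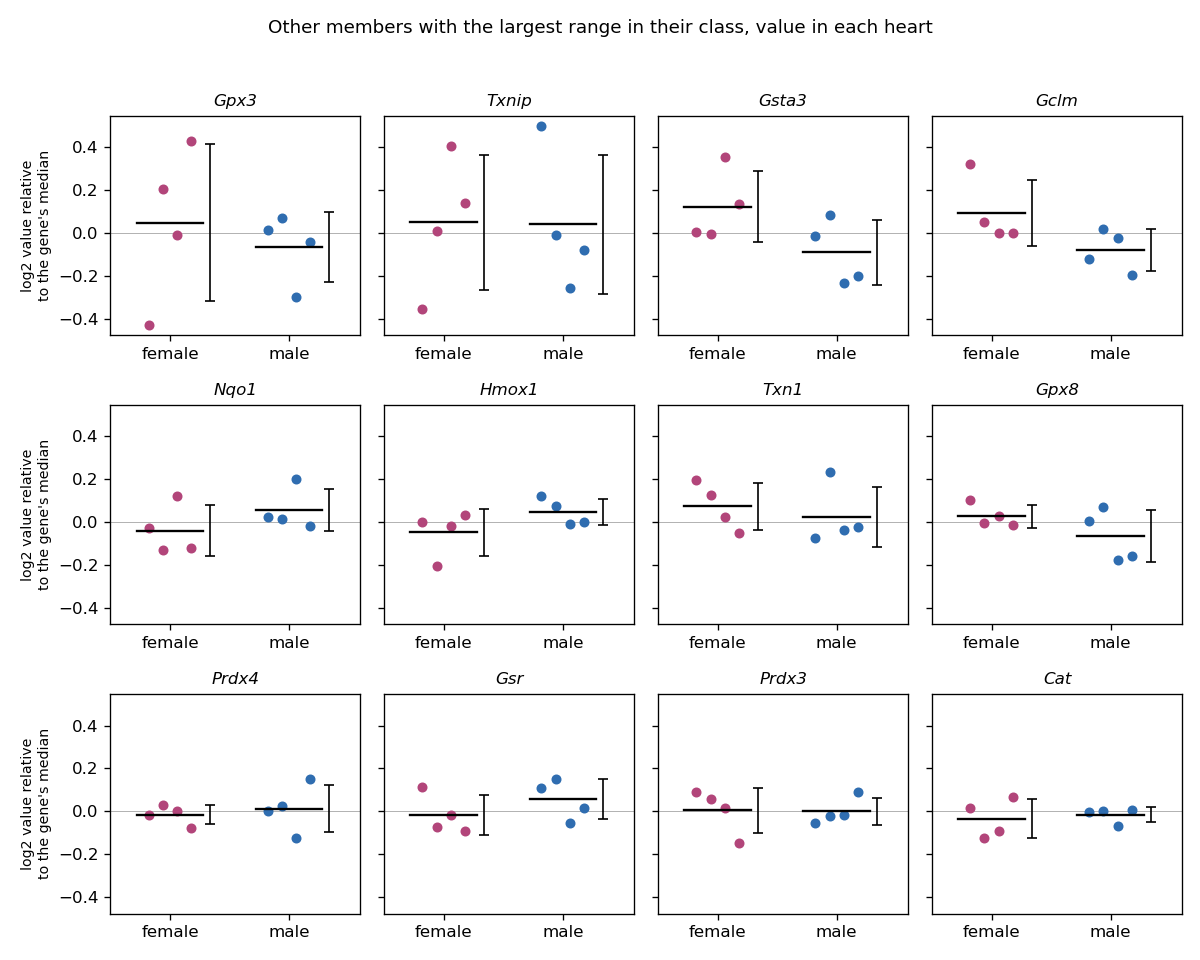
Log2 value relative to the gene's median (vertical axis) in each female and each male heart for 12 further members, among them the members with the largest range in each role. Points are hearts 1 to 4 from left to right, lines are means and bars are the SD over 4 hearts. Gpx3 and Txnip span 0.86 each, with hearts of both sexes spread over the range, and Cat spans 0.19.

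Of the superoxide dismutases and catalase, 1 of 4 had a higher mean in females. Sod3, the dismutase secreted into the extracellular matrix, read -0.20, -0.19, -0.02 and 0.03 in the females, against -0.06, 0.02, 0.11 and 0.16 in the males. Females 1 and 2 were below all males and the others overlapped. The difference was -0.15 ± 0.07 (SE, limma adjusted p = 0.718), or -0.05 with the liver markers as a covariate and -0.23 with the adipocyte markers. Females 1 and 2 also had the highest liver-type marker means, at 0.31 and 0.54. In the males the liver-type means ran only from -0.08 to -0.02. Smooth muscle and pericyte means were 0.06, -0.09, 0.15 and 0.18 in male hearts 1 to 4. In female hearts 1 to 4 they were -0.07, -0.00, -0.09 and 0.04. The part of either marker set in the Sod3 values was not tested. Cat, which encodes the peroxisomal catalase, read 0.02, -0.12, -0.09 and 0.07 in the females, against -0.00, 0.00, -0.07 and 0.01 in the males, with a difference of -0.02. The highest and the lowest heart were both female. The cytosolic Sod1 and the mitochondrial Sod2 had differences of 0.06 and -0.03.

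The quinone reductase gene Nqo1 and the heme oxygenase gene Hmox1, both classic targets of NRF2, had lower means in females. Nqo1 read -0.03, -0.13, 0.12 and -0.12 in the females, against 0.02, 0.02, 0.20 and -0.02 in the males, with a difference of -0.10 ± 0.07 (SE, limma adjusted p = 0.847). Heart 3 was the highest of each sex, and the difference was -0.05 without male 3 and -0.02 with the liver markers as a covariate. Hmox1 read -0.00, -0.21, -0.02 and 0.03 in the females, against 0.12, 0.08, -0.01 and 0.00 in the males. Female 2 alone was far below 0, and the difference of -0.10 ± 0.06 (SE, limma adjusted p = 0.793) was -0.04 without it and -0.01 with the liver markers as a covariate.

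The members did not vary as a single block. Over the 8 hearts, 1035 pairs of members gave Pearson correlations with a median of 0.01, and 0 pairs passed an adjusted p of 0.05 (exact permutation tests, Benjamini-Hochberg over the pairs), with 54 pairs (5.22%) at an unadjusted p under 0.05. The strongest was between Gpx2 and Txnrd1 (Pearson r = -0.95, exact permutation p = 0.00218, adjusted 0.452, Spearman rho = -0.81, exact permutation p = 0.0218, adjusted 0.776). Male 2 was the highest of the males for Gpx2 and the lowest for Txnrd1. Without the 2 hearts farthest from the median of Gpx2, r was -0.58, so the relation rests on those hearts. Gstp2 and Txnrd2 followed (r = 0.92, exact permutation p = 0.00181, adjusted 0.452, rho = 0.86, exact permutation p = 0.0107, adjusted 0.776), with r = 0.74 without 2 such hearts. Gclc and Prdx2 came next (r = 0.92, exact permutation p = 0.00176, adjusted 0.452, rho = 0.95, exact permutation p = 0.00114, adjusted 0.59), with r = 0.91 without 2 such hearts. With the mean of each sex removed, r was -0.996, 0.96 and 0.92 for these pairs. The SD within a sex exceeded the median of all genes in 30 of 46 members, and 5 lay above percentile 95, namely Txnip, Gpx3, Gstp2, Gsto1 and Gsta3.

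Other genes of the pathway likewise gave 0 calls at an adjusted p of 0.05 (limma), in each of 7 lists. Of all genes, 49.6% had higher means in females and 6.96% had an unadjusted p under 0.05 (limma). Of 9 genes of NRF2 control, 6 had higher means in females and 0 had an unadjusted p under 0.05. The small MAF partner gene Mafg had the smallest p, with a difference of 0.13 ± 0.07 (SE), or 0.07 without female 3. Of 15 measured genes of glutathione precursors and breakdown, 10 had higher means in females and 0 had an unadjusted p under 0.05, led by the aminopeptidase gene Anpep at 0.14 ± 0.07 (SE). Of 15 measured genes of NADPH supply, 8 had higher means in females. The malic enzyme gene Me3, at -0.09 ± 0.04 (SE), or -0.05 with the liver markers as a covariate, alone had an unadjusted p under 0.05. That is 6.67% of the list, near the share over all genes.

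Microsomal glutathione transferases and relatives had 5 of 11 higher means in females and 0 with an unadjusted p under 0.05, with Ltc4s, the leukotriene C4 synthase gene, first at 0.09 ± 0.09 (SE), or 0.04 without female 3 or female 4, 0.18 without female 2 and 0.27 with the liver markers as a covariate. Glutaredoxins and methionine sulfoxide reductases had 8 of 17 higher means in females. Only Msrb1 had an unadjusted p under 0.05, which is 5.88% of the list, against 6.96% of all genes. Msrb1, the selenium-containing methionine sulfoxide reductase gene, read -0.02, 0.01, -0.01 and -0.14 in the females, against 0.15, -0.01, 0.21 and 0.15 in the males. All males but male 2 were above every female, and the difference was -0.16 ± 0.05 (SE, limma adjusted p = 0.605). Of 14 measured oxidant source genes, 4 had higher means in females and 0 had an unadjusted p under 0.05, and the NADPH oxidase subunit gene Cyba, at 0.09 ± 0.05 (SE), had the smallest p (0.06 without female 4).

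The genes grouped here as further NRF2-responsive enzymes and iron storage had 11 of 17 higher means in females. Of them, 3 had an unadjusted p under 0.05. Whether each of these genes responds to NRF2 was not tested. The shares over all genes were 49.6% and 6.96%. Ces1d, a carboxylesterase gene known to be expressed in liver and adipocytes, had a difference of 0.20 ± 0.06 (SE, limma adjusted p = 0.571), or 0.11 with the liver markers as a covariate, and its sexes did not overlap. The carbonyl reductase gene Cbr3 had 0.11 ± 0.05 (SE) and the second heme oxygenase gene Hmox2 -0.10 ± 0.04 (SE), or 0.07 and -0.05 with the adipocyte markers as a covariate. The medians of the 7 lists lay between -0.01 and 0.04.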

How the data were processed

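The authors deposited 1 table of log values, taken here as log2, for 34351 probe sets on 8 arrays. Per the labels, biotin-labelled cRNA was made from 100 ng of total RNA. How background was corrected and arrays were normalized, and the base of the logarithm, is not given in the sources used here. Every one of the 34351 probe sets is centred on its own median (0 within 1e-06), and the medians of single arrays lie between -0.002105 and 0.002304. The platform annotation gives 1 symbol for 23521 probe sets, several for 1814, which enter no gene value, and none here for 9016. Averaging probe sets per gene gave 22180 genes. All 46 members matched the RefSeq table of GRCm38.p6, which gave gene order, and the only coordinates given are those of its promoter windows, since the sources name no build for the array values.

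Females and males were compared with limma 3.58.1 in R 4.3.3 (a model of sex alone), adjusted by Benjamini-Hochberg over all genes, with a threshold of 0.05. The number of arrays limits the precision, and the median standard error over all genes was 0.0497. For single members an exact permutation test (two-sided) was added, whose smallest p with 4 against 4 is 0.0286. The code was tested on simulated data. Values in every heart are given for members with an unadjusted p under 0.05 and for the 2 of each role with the largest range. Of each other list up to 4 genes with an unadjusted p under 0.05 are named, or else the gene with the smallest p. Gstp1 and the second motif were chosen after the sequences were seen. The summary of the mu class was added to the roles that were set in advance. The members and lists were chosen with earlier results of these data known. Alternatives were quantile normalization, median centring, probe sets tested singly, trend and robust eBayes, weights per array, a replicate block, adipocyte, liver or atrial markers as a covariate, and each array left out. A filter on dim probe sets was not run, since centred values hold no brightness. Per-alternative counts of members with higher means in females were added after seeing the data.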

Additional observations from a re-analysis of the deposited data

Results flagged for a closer look

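Over the members and the other named genes, 110 groups of 4 hearts were searched for a heart far from the other 3, and 6 were found (5.45%), 5 of them in members. Chance alone picks about 1 group in 20. Gclm in female 1 was at 0.32, with the other females between -0.00 and 0.05. Gpx4 in female 2 was at -0.0827, with the other females between 0.04 and 0.06. Gpx2 in male 2 was at 0.0942, against -0.03 to -0.01 in the other males, and Txnrd1 in the same heart was at -0.20, against -0.00 to 0.02. Cat in male 3 was at -0.0692, with the other males between -0.00 and 0.01. Msrb1, which is not a member, was at -0.14 in female 4, with the other females between -0.02 and 0.01.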

How the results depend on the processing

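The count of members past an adjusted p of 0.05 was 0 in all 17 alternatives, with the smallest adjusted p of any member between 0.498 and 0.719, and 7 to 10 members had an unadjusted p under 0.05 in the settings that kept all arrays and used no adipocyte or liver covariate. Members with higher means in females numbered 29 to 33, and all 6 mu class genes had higher means in females throughout. Of all genes, 3 passed with quantile normalization, 4 with the liver markers as a covariate and 4 to 7 with an array left out. Members with an unadjusted p under 0.05 numbered 6 with the adipocyte covariate, 5 with the liver covariate and 4 to 8 with an array left out, and the members' median difference was 0.017 to 0.035 with an array left out. Same-numbered hearts had correlations of 0.01 to 0.14, and differently numbered hearts of -0.13 to 0.10. Females 1, 2 and 4 correlated best with the male of their own number, and female 3 with male 1 (0.06). The labels do not say whether the replicate numbers mark a pairing or a batch, and that was not tested. With the replicate block 8 genes and 0 members passed, and 9 members had an unadjusted p under 0.05. Among the genes with values in every heart and those named from the lists, the direction turned with the adipocyte covariate for Gpx3 (-0.0529), Gsr (0.0314) and Prdx4 (0.0265), with the liver covariate for Cat (0.0097), Prdx3 (-0.060) and Txn1 (-0.0359), and with the atrial covariate for Txnip (-0.0134), and the cause was not tested. Further members turned as well. With an array left out, the difference among these genes and the check genes ran across 0 for Cat (-0.0523 to 0.0110), Gpx3 (-0.0148 to 0.272), Prdx3 (-0.0242 to 0.0551), Prdx4 (-0.0733 to 0.017), Txnip (-0.11 to 0.16) and Pcyt2 (-0.128 to 0.0201). The check genes Xist (trend and robust eBayes, adjusted p = 0.281), Uty and Kdm5d (quantile normalization, 0.0691 and 0.0729) missed the threshold in 1 alternative each.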

Other observations

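Members of these families were also read by 10 probe sets whose annotation names several genes, which entered no gene result. Probe sets shared by Gsta1, Gsta2 and predicted genes gave differences of -0.16, -0.07 and 0.01, and 1 of them read 0.01, -0.42, 0.12 and -0.37 in the females, against -0.14, 0.03, 0.10 and -0.01 in the males. For Prdx1, whose protein is a cytosolic peroxiredoxin, 3 probe sets shared with a predicted gene gave 0.11, 0.04 and 0.03. The Gstm5 probe set, shared with 4933431E20Rik, had a difference of 0.07, the same direction as the 6 measured mu class genes. The probe set shared by Gstp1 and Gstp2 had 0.07, and that shared by Gstz1 and Pomt2 had 0.00. A second Txnip probe set, shared with Gm15441, read -0.06, -0.05, 0.11 and 0.14 in the females, against 0.02, -0.02, 0.18 and -0.06 in the males, a narrower range than the Txnip probe set of the report, with the highest heart now male 3 in place of male 1. None of the 10 had an unadjusted p under 0.05 (limma, every probe set by itself).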
